A study of Homo sapiens with 8 samples.

Results

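Of the 33530 origins called in *ORC1Δ* cells on chromosomes 1 to 22 and X, 4296 (12.8%) shared no base with any origin of the other 3 lines. These *ORC1Δ*-only origins were taken from the list of *ORC1Δ* origins by leaving out each interval with an overlap of 1 bp or more with an origin of WT, *ORC2Δ* or *ORC5Δ* cells. The 4 lists held 142864 intervals in all. The same rule gave 4806 *ORC2Δ*-only origins of 37811 and 6449 *ORC5Δ*-only origins of 41328, and these served for comparison together with the other 29234 *ORC1Δ* origins.

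All lines came from HCT116, a human colon cancer epithelial line, here without p53. The knockout lines had been mutated by CRISPR–Cas9 in *ORC1*, *ORC2* or *ORC5*, while the WT line kept all 3 genes, and each line gave 2 biological replicates (8 samples). SNS-seq sequences short nascent strands, the young DNA made at each start of replication, after size selection and digestion of broken DNA by lambda exonuclease. An origin was a peak found in both replicates of its line, but the read counts of the 2 replicates were merged, which left no replicate spread for any read count, and the lists carried no peak score.

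ORC, the origin recognition complex, binds DNA in G1 and, with CDC6 and CDT1, loads the MCM2–7 helicase, and a loaded helicase marks a site that can later fire. ORC1 is an ATPase subunit of the ring and makes the site where CDC6 joins it. In the *ORC1Δ* line only ORC1 was lost from chromatin, and ORC2 to ORC6 still loaded. Human origins have no fixed sequence, but many lie in GC-rich DNA, near promoters and CpG islands, or beside runs of G that can fold into G-quadruplexes. The comparisons below ask which DNA was called as an origin in *ORC1Δ* cells and in none of the other lines. A missing call does not show that a site was unused. The reads of *ORC2Δ* and *ORC5Δ* cells at these sites were not examined.

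A typical *ORC1Δ*-only origin lay in DNA of moderate GC content, with a few short runs of G on 1 strand. The 4 stretches below show this next to origins found in all 4 lines. They are the 120 bases richest in G of the 2 intronic or intergenic origins of each kind that were nearest to the medians of their set in composition, width and fold, from the GRCh38 reference. Capitals mark runs of 3 or more G. The first pair comes from the *ORC1Δ*-only origins and the second from the origins of all 4 lines.
intergenic origin, chr3:61409055-61409174, reverse strand: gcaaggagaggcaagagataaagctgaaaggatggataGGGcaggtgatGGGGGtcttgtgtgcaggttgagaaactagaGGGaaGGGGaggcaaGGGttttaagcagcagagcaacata
SLC24A3 intron origin, chr20:19670853-19670972, forward strand: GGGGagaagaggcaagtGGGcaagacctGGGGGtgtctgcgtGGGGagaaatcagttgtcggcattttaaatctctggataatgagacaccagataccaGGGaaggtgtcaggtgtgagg
LINC02011 intron origin, chr3:14803546-14803665, forward strand: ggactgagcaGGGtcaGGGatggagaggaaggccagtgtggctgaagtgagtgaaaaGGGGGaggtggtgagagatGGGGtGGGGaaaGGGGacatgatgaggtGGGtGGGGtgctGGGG
intergenic origin, chr17:79645232-79645351, reverse strand: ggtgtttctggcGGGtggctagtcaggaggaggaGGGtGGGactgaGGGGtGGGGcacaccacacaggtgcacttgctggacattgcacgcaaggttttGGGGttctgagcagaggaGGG

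G made up 40.8% and 39.2% of the bases in the *ORC1Δ*-only stretches, against 55% and 45% in the stretches from all 4 lines. The *SLC24A3* origin held 69 reads in WT and 93 in *ORC1Δ* cells. *SLC24A3* encodes a potassium-dependent sodium-calcium exchanger. The origin in *LINC02011*, called in every line, held 138 and 137 reads.

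The *ORC1Δ*-only origins with the highest fold had another sequence, one strand made of little but G and T. Of the 6 origins with the highest fold in *ORC1Δ* over WT, among the 4269 with at least 100 reads of both lines together, 5 are shown by their 120 bases richest in G and T. Capitals mark runs of 8 or more bases of G or T alone.
intergenic origin, chr7:151312886-151313005, forward strand: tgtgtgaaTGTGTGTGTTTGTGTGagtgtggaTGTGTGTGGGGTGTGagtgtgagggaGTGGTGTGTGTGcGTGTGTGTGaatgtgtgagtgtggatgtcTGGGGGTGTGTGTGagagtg
intergenic origin, chr3:14255332-14255451, forward strand: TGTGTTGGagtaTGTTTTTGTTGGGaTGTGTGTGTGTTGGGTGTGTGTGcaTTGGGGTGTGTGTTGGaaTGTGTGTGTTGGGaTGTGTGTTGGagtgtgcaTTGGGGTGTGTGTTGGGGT
SV2C intron origin, chr5:76257830-76257949, forward strand: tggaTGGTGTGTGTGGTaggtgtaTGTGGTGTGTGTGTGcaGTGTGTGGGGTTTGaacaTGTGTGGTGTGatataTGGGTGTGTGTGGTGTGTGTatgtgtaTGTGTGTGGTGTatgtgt
VSTM2L intron origin, chr20:37914244-37914363, forward strand: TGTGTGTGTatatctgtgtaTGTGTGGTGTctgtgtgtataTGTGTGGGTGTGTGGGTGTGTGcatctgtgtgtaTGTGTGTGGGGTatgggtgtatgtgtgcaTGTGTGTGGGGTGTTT
TMEM255B intron origin, chr13:113774651-113774770, reverse strand: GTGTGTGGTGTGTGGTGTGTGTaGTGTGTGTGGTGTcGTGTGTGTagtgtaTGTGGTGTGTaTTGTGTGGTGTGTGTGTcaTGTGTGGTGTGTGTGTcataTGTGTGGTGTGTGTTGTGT

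G and T made up 87.5 to 91.7% of these stretches. The intergenic origin on chromosome 7 held 31 reads in WT and 179 in *ORC1Δ* cells, a log2 fold of 2.47 (95% counting interval 1.91 to 3.07). The intergenic origin on chromosome 3 held 23 and 115 reads, a log2 fold of 2.26. All 5 were low in WT, with 19 to 38 reads, below the median of 72 for the whole set.

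The origin in *SV2C*, which encodes a synaptic vesicle glycoprotein, held 38 reads in WT and 170 in *ORC1Δ* cells (log2 fold 2.10). The origin in *VSTM2L* held 19 and 84 reads (2.08), and the origin in *TMEM255B* held 23 and 100 (2.06). In each of these 5 origins GC skew and TA skew had the same sign, so that the strand with more G also had more T.

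Of the 3 *ORC1Δ*-only origins with the highest absolute GC skew, the 2 shown had a strand of G and A instead. Capitals mark runs of 8 or more bases of G or A alone in their 120 bases richest in G and A.
intergenic origin, chr19:23881367-23881486, forward strand: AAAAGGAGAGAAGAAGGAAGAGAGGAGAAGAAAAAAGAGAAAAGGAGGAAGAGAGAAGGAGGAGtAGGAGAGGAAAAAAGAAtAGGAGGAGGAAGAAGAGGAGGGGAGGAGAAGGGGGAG
SSTR5 intron origin, chr16:1076005-1076124, reverse strand: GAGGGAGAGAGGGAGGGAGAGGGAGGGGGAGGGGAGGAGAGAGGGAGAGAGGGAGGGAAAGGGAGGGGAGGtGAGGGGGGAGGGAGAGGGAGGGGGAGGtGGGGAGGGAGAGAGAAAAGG

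The chromosome 19 origin had an absolute GC skew of 0.987 and held 145 reads in WT against 108 in *ORC1Δ* cells, a log2 fold of −0.49. The origin in *SSTR5*, a somatostatin receptor gene, held 94 and 94 reads, a log2 fold of −0.06, or 0.18 corrected for GC content.

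RPM is the number of reads per 1000000 reads of the line in the table, and a fold is *ORC1Δ* RPM over WT RPM. The origins were chosen by their calls in these same lines, so their reads and folds are given as a description and were not tested. The median *ORC1Δ*-only origin held 72 reads in WT (quartiles 59 and 90, range 8 to 781) and 95 in *ORC1Δ* cells (quartiles 81 and 116, range 50 to 817). These were 11.2 and 14.2 RPM, and the median log2 fold was 0.35 (95% interval of the median 0.33 to 0.36). That interval runs over origins, which are no replicates of a line, and leaves out the choice of setting. Other settings gave medians from 0.24 to 0.39. The ranges of the 2 lines overlapped over most of their length.

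The threshold for a changed origin was 1.5-fold in RPM. Of the 4296 origins, 871 (20.3%) were up by 1.5-fold, where 7.03% of the 42156 origins of the table were. Another 11 (0.256%) were down by 1.5-fold, where 3.95% of the table were. The fold was above 1 in 3802 (88.5%). The exact counting interval of the log2 fold lay above 0 for 1474 origins (34.3%), included 0 for 2755 (64.1%) and lay below 0 for 67. Such intervals cover counting error only, since reads after amplification are not independent molecules.

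Many of these sites had WT reads as dense as in called WT origins. The WT reads per kb of 1686 *ORC1Δ*-only origins (39.2%) reached at least the 10th percentile of the WT list, and those of 451 (10.5%) reached its median. The 3 origins with the most *ORC1Δ* reads show the extreme. The origin at the start of *ENSG00000241489*, on chromosome X, held 781 reads in WT and 817 in *ORC1Δ* cells (log2 fold 0.0046). An origin on chromosome 7, outside protein-coding genes but within 1 kb of the start of another kind of gene, held 774 and 787 reads (−0.04). The origin at the start of *IQUB*, which encodes a protein of sperm flagella, held 643 and 717 (0.10). All 3 were absent from the WT list and had nearly equal RPM in both lines. Corrected for GC content their log2 folds were 0.24, 0.23 and 0.27.

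The lowest folds were at an intergenic origin on chromosome 5 with 128 reads in WT and 74 in *ORC1Δ* cells (log2 fold −0.85), in an exon of *CRACD* with 347 and 217 (−0.74), and at the start of *SGCB*, a sarcoglycan gene, with 134 and 84 (−0.73). The last pair had GC contents of 66.7% and 80.2%, and corrected for GC content their log2 folds were −0.50 and −0.18. The 3 widest *ORC1Δ*-only origins lay in *ITSN2*, an endocytic scaffold gene (1653 bp, 497 and 461 reads), in the long noncoding RNA gene *ENSG00000258760* (1606 bp, 258 and 346 reads) and in *TNKS*, which encodes the poly-ADP-ribose polymerase tankyrase (1562 bp, 416 and 524 reads). The median width was 441 bp, against 529 bp for the other *ORC1Δ* origins.

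The fold fell step by step with the number of other lines that shared an origin. The median log2 fold was 0.35 for the *ORC1Δ*-only origins, 0.22 for 4598 origins shared with 1 other line, 0.17 for 6373 shared with 2 and −0.07 for 18263 shared with all 3. GC content rose along the same classes, from a median of 46.7% to 48.8%, 50.4% and 55.9%. The share within 1 kb of the transcription start site (TSS) of a protein-coding gene rose from 4.28% to 6.63%, 8.0% and 15.1%. Among origins shared with a single line, the median log2 fold was 0.04 for 1048 shared with WT, 0.34 for 1470 shared with *ORC2Δ* and 0.27 for 2080 shared with *ORC5Δ*.

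**Figure D1:**
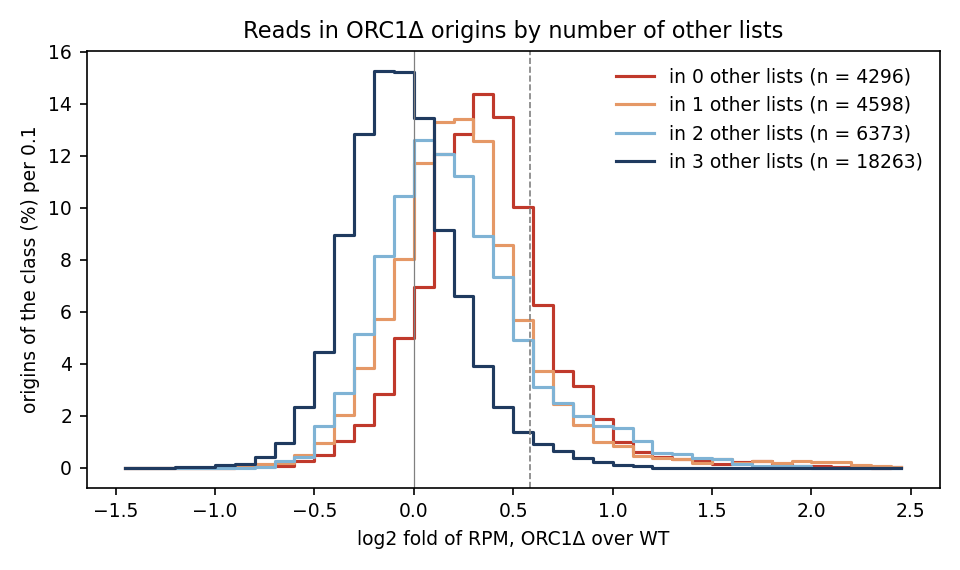
Share of origins (%) per bin of 0.1 in the log2 fold of RPM in *ORC1Δ* over WT, for *ORC1Δ* origins found in 0, 1, 2 or 3 of the other lists; the dashed line marks 1.5-fold. The median moves from 0.35 for the *ORC1Δ*-only origins to −0.07 for the origins of all 4 lists, and the distributions overlap widely.

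By distance, few *ORC1Δ*-only origins were near misses of the rule. By WT reads, many were close to called WT origins, as given above. The nearest origin of another line was at a median of 25438 bp, and 910 (21.2%) had none within 100 kb. At the edge of the rule, the 110 origins with a neighbour of another line within 500 bp had a median log2 fold of 0.38 and GC content of 48.4%, against 0.34 and 46.7% for the 4186 farther away. On the other side of the edge, 1 *ORC1Δ* origin was covered by other lines over 50 bp or less, with 196 reads in WT and 174 in *ORC1Δ* cells.

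The rule did not use sequence or position, and these were tested. The calls rest on reads, however, and the fold moved with GC content also in origins called in both lines, as given below. The tests are therefore not independent of the choice of origins. The median GC content was 46.7% in the *ORC1Δ*-only origins and 53.3% in the other *ORC1Δ* origins, with Cliff's delta at −0.49 (95% interval −0.50 to −0.48). Cliff's delta runs from −1 to 1 and is the share of pairs in which the first set is higher minus the share in which it is lower. Against other *ORC1Δ* origins weighted to the same *ORC1Δ* reads, the delta was −0.36 (−0.37 to −0.34). The GC content was lower on 23 of 23 chromosomes, and the p-value of the two-sided Wilcoxon rank sum test, without weights, was too small for the software to hold. Regions are units of sequence and not replicates of a line, and neighbours are not independent, so the effect size is given first. The GC content was also lower than in *ORC2Δ*-only origins (49.1%, delta −0.19) and in *ORC5Δ*-only origins (50.1%, delta −0.30). For *ORC2Δ*-only and *ORC5Δ*-only origins against the other origins of their own line, delta was −0.30 and −0.24.

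**Figure D2:**
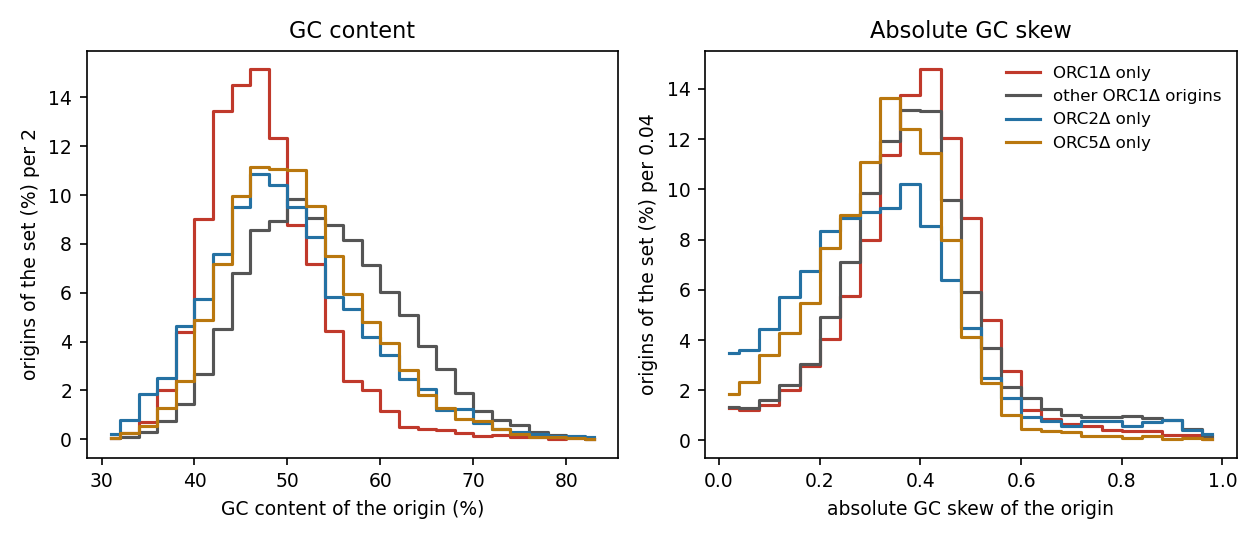
Share of origins (%) per bin of GC content (left, %) and of absolute GC skew (right) in the *ORC1Δ*-only origins, the other *ORC1Δ* origins and the origins called only in *ORC2Δ* or only in *ORC5Δ*. The *ORC1Δ*-only origins lie lowest in GC content, at a median of 46.7%, and keep a median absolute GC skew of 0.394 where the *ORC2Δ*-only origins have 0.319.

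The *ORC1Δ*-only share of the *ORC1Δ* list followed the GC content. It was 29.2% (95% Wilson interval 27.8 to 30.6%) of the 4303 origins at 40 to 45% GC and 1.78% (1.28 to 2.47%) of the 1964 origins at 65 to 70% GC. The median log2 fold of the *ORC1Δ*-only origins fell from 0.43 in the first of these bins to −0.12 in the second. In *ORC1Δ* origins that were also called in WT, which the rule leaves out, the median log2 fold moved the same way, from 0.11 to −0.24. With the median of these shared origins subtracted in bins of 2 points of GC content, the median log2 fold of the *ORC1Δ*-only origins was 0.27. The part of this trend in the calls was not tested.

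GC skew compares G with C on 1 strand, and its absolute value measures the imbalance on either strand. The median absolute GC skew was 0.394 in the *ORC1Δ*-only origins, 0.319 in the *ORC2Δ*-only origins (Cliff's delta 0.27, 95% interval 0.24 to 0.29) and 0.333 in the *ORC5Δ*-only origins (delta 0.27, 0.25 to 0.29). The difference ran the same way on 23 of 23 chromosomes in both comparisons. The adjusted p was 3.31e-107 and 6.44e-127 by the Wilcoxon rank sum test with Benjamini-Hochberg adjustment over 35 comparisons. These p-values run over regions and do not measure the spread between knockout lines, and chromosomes of the same libraries are not independent. Against the other *ORC1Δ* origins (0.380) the delta was 0.0436 and depended on the setting: it was −0.0446 in a fixed window of 500 bp and −0.0254 against origins weighted to the same GC content, but 0.112 against origins weighted to the same *ORC1Δ* reads, 0.104 against origins of all 4 lists and 0.211 against WT origins. The median of the *ORC1Δ*-only origins was above those of the origins called only in the other knockout lines, and the direction against the rest of the *ORC1Δ* list turned with the window and the GC content.

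The skew of the *ORC1Δ*-only origins was of middle size in most cases. An absolute GC skew from 0.4 to 0.6 was found in 43.2% of them, in 34.4% of the other *ORC1Δ* origins, in 23.6% of the *ORC2Δ*-only and in 26.9% of the *ORC5Δ*-only origins. A skew of 0.8 or more was found in 1.26% of them, in 3.29% of the other *ORC1Δ* origins, in 2.83% of the *ORC2Δ*-only and in 0.496% of the *ORC5Δ*-only origins. Around the midpoint, the mean absolute GC skew in bins of 100 bp rose from 0.189 at the flank to 0.449 just past the midpoint. The mean GC content rose over the same distance from 42.9% to 48.1%, while the other *ORC1Δ* origins rose from 48.1% to 54.4%. The flanks differed in GC content about as much as the centres.

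**Figure D3:**
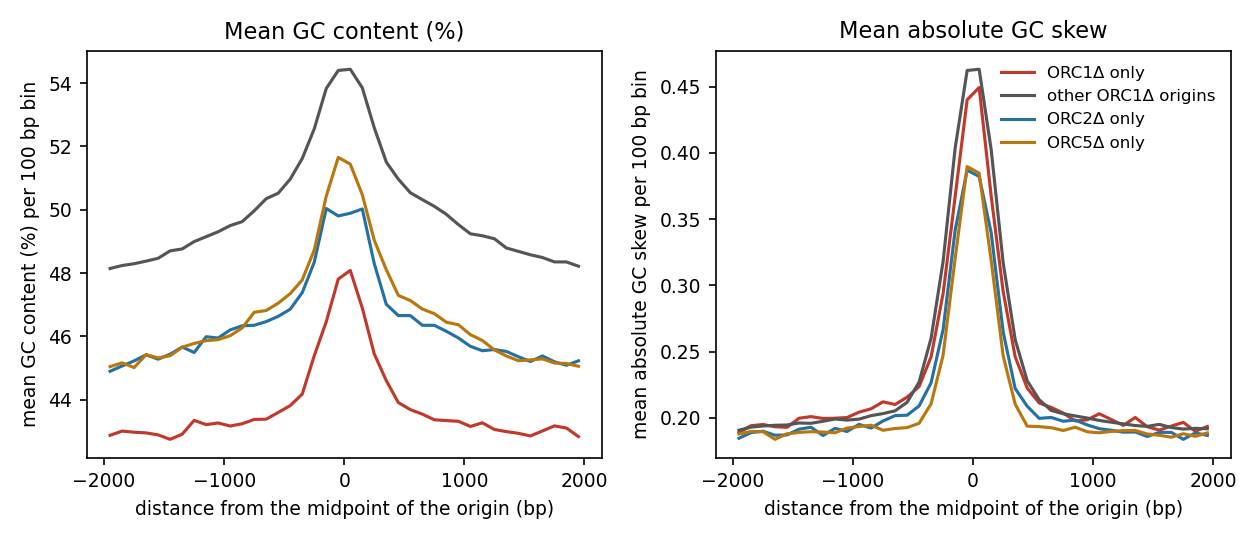
Mean GC content (left, %) and mean absolute GC skew (right) in bins of 100 bp against the distance in bp from the midpoint of the origin, for 4 sets of origins. The *ORC1Δ*-only origins are lowest in GC content over the whole span, at 42.9% on the flank and 48.1% at the centre, and reach a skew of 0.449, near the 0.463 of the other *ORC1Δ* origins.

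The highest absolute G4Hunter score in an interval, a measure of runs of G or C that can form G-quadruplexes, had a median of 1.60 in the *ORC1Δ*-only origins. It was 2.00 in the other *ORC1Δ* origins (Cliff's delta −0.47, 95% interval −0.48 to −0.45), 1.96 in the *ORC2Δ*-only origins (−0.36) and 1.80 in the *ORC5Δ*-only origins (−0.25). With the reference weighted to the same GC content the first delta was −0.29, and weighted to the same *ORC1Δ* reads it was −0.38. The ratio of observed to expected CpG was 0.20 against 0.256 (delta −0.23, adjusted p = 2.48e-125 by the same test), with a delta of −0.0832 under the weighting by GC content and −0.135 under that by *ORC1Δ* reads. Absolute TA skew was higher than in the other *ORC1Δ* origins (0.181 against 0.153, delta 0.11) and than in the *ORC5Δ*-only origins (0.148, delta 0.16). Against the *ORC2Δ*-only origins (0.174) the delta was 0.0167, with an interval from −0.00703 to 0.0404 and an adjusted p of 0.174.

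The pattern of G and T in the highest origins was followed through the whole set, after their sequences had been seen, by the excess of G and T over A and C on the richer strand, as a percentage of the bases. In the *ORC1Δ*-only origins with an excess under 20%, the median log2 fold was 0.33 and 16.1% were up by 1.5-fold. It was 1.00 in the 46 with an excess of 40 to 50%, of which 40 (87.0%) were up. It was 1.52 in the 74 with an excess of 50% or more, of which 71 (95.9%) were up. These counts include the highest origins, whose sequences gave the pattern. In the other *ORC1Δ* origins with an excess of 40% or more, 815 of 1293 (63.0%) were up. By the excess of G and A over T and C, the median log2 fold of the *ORC1Δ*-only origins was 0.34 both at under 10% and in the 267 origins at 40% or more.

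The same rise was present in origins that were called in both WT and *ORC1Δ* cells. Their median log2 fold was −0.06 at an excess of G and T under 20% and 0.43 in the 609 origins at 40% or more, of which 214 (35.1%) were up by 1.5-fold. In *ORC2Δ*-only origins the median log2 fold of *ORC2Δ* over WT was 1.67 in 196 origins at 40% or more and 0.12 under 20%. Of the 196, 172 (87.8%) were up by 1.5-fold. In *ORC5Δ*-only origins the median log2 fold of *ORC5Δ* over WT was 0.44 in 52 origins and 0.10. Of the 52, 17 (32.7%) were up. Outside the *ORC1Δ*-only set the excess of G and A also went with the fold: in origins called in both WT and *ORC1Δ* cells the median log2 fold was −0.14 under 10% and 0.08 in the 2327 at 40% or more, and in *ORC2Δ*-only origins it was 0.13 and 0.37. Each line's folds have their own table but the same WT libraries. Origins with an excess of G and T of 40% or more made up 2.79% of the *ORC1Δ*-only set and 4.42% of the other *ORC1Δ* origins.

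**Figure D4:**
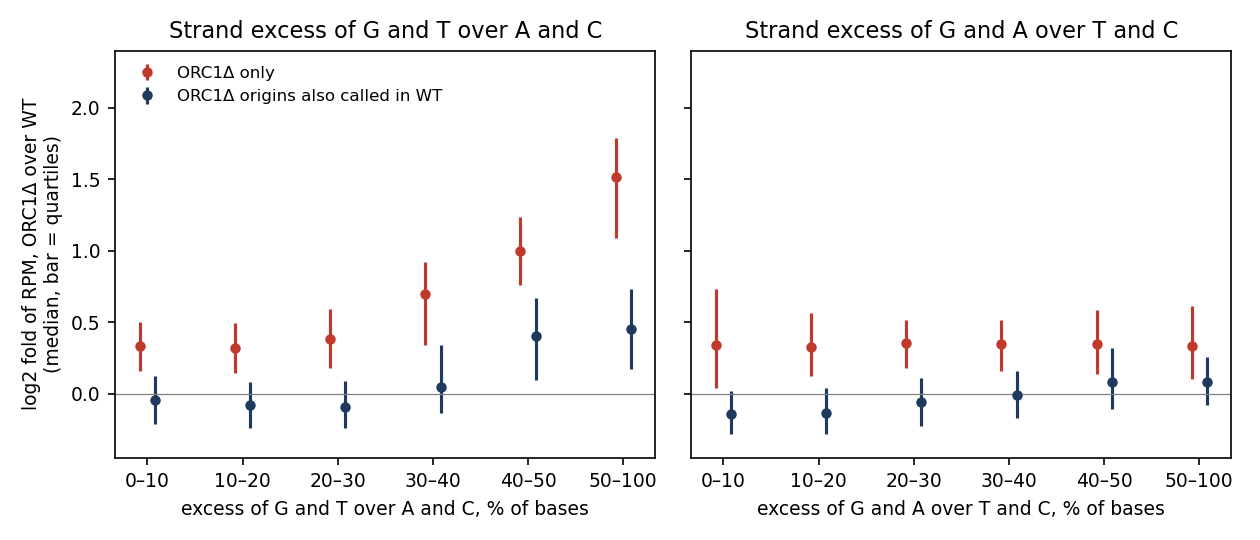
Log2 fold of RPM in *ORC1Δ* over WT (points, medians; bars, quartiles) by the excess of G and T over A and C (left) and of G and A over T and C (right), in % of the bases, for *ORC1Δ*-only origins and for *ORC1Δ* origins also called in WT. The median of the *ORC1Δ*-only origins goes from 0.34 in the lowest bin to 1.52 in the highest bin on the left and stays between 0.32 and 0.35 on the right.

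Short tandem repeats were sought as exact runs of at least 4 copies (at least 12 bases for units of 1 or 2 bases) on either strand in 500 bp around the midpoint. They were found in 636 *ORC1Δ*-only origins (14.8%), in 19.8% of the other *ORC1Δ* origins, in 28.8% of the *ORC2Δ*-only and in 14.8% of the *ORC5Δ*-only origins. The ATCC repeat was present in 45 (1.05%), against 862 (2.95%) of the other *ORC1Δ* origins, a difference of −1.90 points (95% Newcombe interval −2.23 to −1.5). This difference was −3.71 points against origins weighted to the same GC content and −0.93 points with at least 6 copies. ATCC was also rarer in *ORC2Δ*-only origins (0.728% against 2.56% of the other origins of that line) and in *ORC5Δ*-only origins (0.744% against 2.46%). The ACCC repeat was present in 0.163% against 0.989%, and the AGG repeat in 1.35% against 2.19%. ACCC was found in 0.104% of the *ORC2Δ*-only origins against 0.842%, and in 0.202% of the *ORC5Δ*-only origins against 0.829%. For AGG these shares were 2.31% against 2.41% and 1.64% against 2.27%. The units named here were picked for the largest differences in share in this same comparison. The AGG difference of −0.839 points was −0.173 (−0.538 to 0.258) against origins weighted to the same GC content.

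The *ORC1Δ*-only origins lay mostly away from promoters. Of the 4296, 184 (4.28%) were within 1 kb of a protein-coding TSS, against 12.2% of the other *ORC1Δ* origins, a difference of −7.94 points (95% Newcombe interval −8.62 to −7.19). CpG islands, CpG-dense stretches found at many promoters, held 151 (3.51%) against 13.9%, a difference of −10.4 points (−11.0 to −9.66). By protein-coding genes alone, introns held 47.8% against 40.6%, exons 2.65% against 7.48%, and 45.2% against 39.7% were intergenic. Against origins weighted to the same GC content, the differences were −0.599 points (−1.26 to 0.125) for TSSs, −0.0635 points (−0.656 to 0.592) for CpG islands and −1.17 points for exons. Against origins weighted to the same *ORC1Δ* reads, they were −4.06 points for TSSs and −4.90 points for CpG islands. The difference for intergenic origins turned from 5.54 to −2.00 points under the weighting by GC content, and that for introns was 3.77 points. With genes of all kinds counted and no weighting, introns held 59.5% against 47.4%. Then 29.6% against 27.2% were intergenic, a difference of 2.41 points.

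The CpG island share was also below that of the *ORC2Δ*-only origins (9.57%, difference −6.06 points, −7.06 to −5.06) and of the *ORC5Δ*-only origins (8.70%, −5.18 points, −6.06 to −4.29). The median distance to a protein-coding TSS was 43169 bp, against 23920 bp for the other *ORC1Δ* origins (Cliff's delta 0.20, adjusted p = 7.22e-101 by the Wilcoxon rank sum test), and the delta was 0.0463 with the reference weighted to the same GC content. The gap to the next *ORC1Δ* origin had a median of 11271 bp, against 7568 bp (delta 0.23). Within genes of 1 orientation, the strand richer in G was the coding strand at 1341 of 2252 *ORC1Δ*-only origins (59.5%, 95% Wilson interval 57.5 to 61.6%), close to the 57.7% of the other *ORC1Δ* origins.

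The *ORC1Δ*-only origins were unevenly spread over the chromosomes. They made up 22.9% of the *ORC1Δ* origins of chromosome 13, 21.3% of chromosome 8 and 19.8% of chromosome 5. They made up 3.56% of chromosome 19, 4.60% of chromosome 22 and 5.26% of chromosome X. In the same order, *ORC2Δ*-only shares of the *ORC2Δ* list were 15.7%, 11.2%, 14.3%, 6.62%, 10.5% and 16.5%. For *ORC5Δ*-only origins they were 19.2%, 15.3%, 19.0%, 8.11%, 10.9% and 10.5%. Chromosome 19 was thus lowest in all these sets. Chromosome 8 held 478 *ORC1Δ*-only origins, or 3.30 per Mb, the highest density of the 23 chromosomes. The reads of origins called in both WT and *ORC1Δ* cells moved with the *ORC1Δ*-only share. Their median log2 fold was 0.07, 0.08 and 0.02 on chromosomes 13, 8 and 5, and below 0 on the others, down to −0.11. Across the 23 chromosomes the share and this median had a Pearson's r of 0.78 and a Spearman's rho of 0.78, given as a description, since both come from the same libraries.

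**Figure D5:**
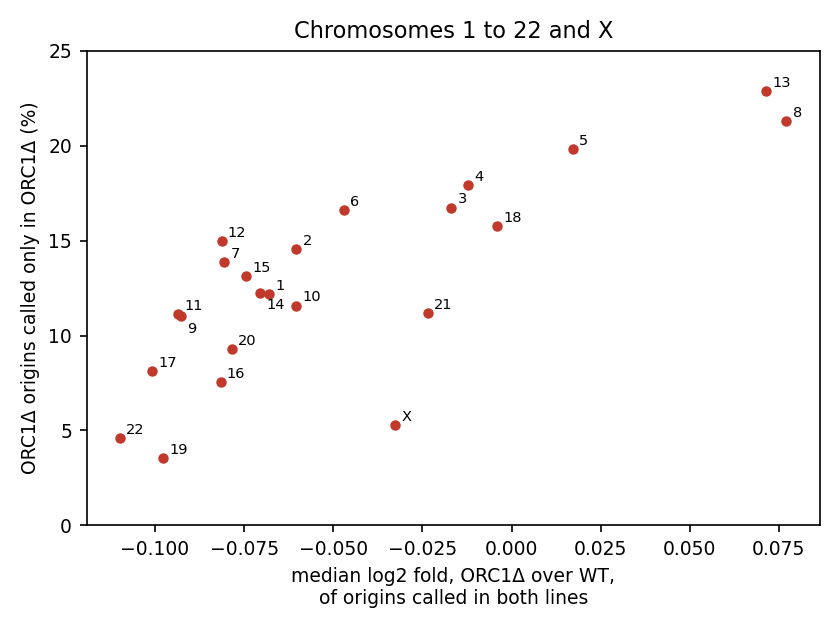
Share of *ORC1Δ* origins that were called only in *ORC1Δ* cells (%) against the median log2 fold of RPM in *ORC1Δ* over WT of the origins called in both lines, with 1 point per chromosome. Chromosomes 13, 8 and 5 are highest on both axes, with shares of 22.9%, 21.3% and 19.8%.

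The same held for blocks of 5 Mb. The share was 4.80% in blocks whose shared origins had a median log2 fold below −0.2 and 37.8% in blocks at 0.2 or more. The part of this regional difference in the calls was not tested. In blocks with at least 10 shared origins, the median log2 fold of 3587 *ORC1Δ*-only origins relative to those of their block was 0.35. It was also 0.35 in all 4296 without the correction. The correction also moves the overall scale, since most shared origins lay below 0, and scaling to the reads of all shared origins gave 0.39. Without chromosomes 5, 8 and 13 and without the block correction, the median log2 fold was 0.33 in 3371 origins. The GC content kept its delta of −0.49 there.

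The block with the most *ORC1Δ*-only origins was on chromosome 5, from 35000001 to 40000000, with 29 of 64 *ORC1Δ* origins. Their median log2 fold was 0.75, and that of 19 origins of the block called in both lines was 0.45. The block held 4 in *LIFR*, the receptor gene for leukemia inhibitory factor, 3 in *EGFLAM*, 3 of 3 in *SPEF2*, a gene of sperm flagella, and 2 of 2 in *SLC1A3*, a glutamate transporter gene. *LMBRD2*, *NADK2*, *WDR70* and *FYB1* held 2 each. The next blocks were on chromosome 8, from 70000001 to 75000000 (29 of 88, with 6 in *KCNB2*, 3 of 3 in *GDAP1* and 2 each in *NCOA2* and *STAU2*) and from 60000001 to 65000000 (25 of 56, with 4 each in *CLVS1* and *NKAIN3*).

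Neighbouring *ORC1Δ* origins were often *ORC1Δ*-only together. The 4296 fell into 2619 runs of consecutive *ORC1Δ* origins without a shared one between them, of which 339 held 3 or more, and 1620 stood alone. The longest run was 18 origins over 4948845 bp of chromosome 12, from position 88489835 to 93438679, around *KITLG*, the gene of stem cell factor, *POC1B*, *UBE2N* and *EEA1*. Their log2 folds lay between −0.07 and 0.79. Runs of 10 lay around *SPON1* on chromosome 11, around *UBE2E3* on chromosome 2 and on chromosome 13.

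In 1619 of 19970 protein-coding genes at least 1 *ORC1Δ*-only origin was found. *SPON1*, which encodes the extracellular matrix protein spondin 1, held the most, 8, and these were all its *ORC1Δ* origins, with none called in WT. Their WT reads ran from 59 to 157 and their *ORC1Δ* reads from 80 to 180, with log2 folds between −0.02 and 0.40. So the gene had nascent-strand reads in both lines and calls in *ORC1Δ* cells alone.

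*UBE2E3*, a ubiquitin-conjugating enzyme gene, held 6 of 6, and none in WT. Reads there went from 37 to 92 at 1 origin (log2 fold 1.25) and from 43 to 84 at another (0.91), and the other folds lay between 0.24 and 0.69. *NSMCE2*, the gene of a SUMO ligase of the SMC5/6 complex, held 7 of 14 and *MTUS2*, a microtubule-associated gene, 7 of 17. *COL23A1* held 6 of 13, *KCNB2* 6 of 8 and *KALRN*, a guanine nucleotide exchange factor gene, 6 of 16.

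Of 29 genes of the licensing machinery, *ORC1* among the others, 2 held 1 *ORC1Δ*-only origin each within the gene body. These were 2 of 16 *ORC1Δ* origins (12.5%), near the 12.8% of the whole list. The origin in *CDC7*, the kinase that triggers loaded helicases, held 60 reads in WT and 89 in *ORC1Δ* cells (log2 fold 0.51). Another *ORC1Δ*-only origin lay just before *CDC7*, within 1 kb of its start, and held 113 and 115 reads (−0.04). The origin in *GINS3*, a part of the active helicase, held 48 and 74 (0.56).

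Of 26 large genes at common fragile sites, which break when replication is slowed and are poor in origins, 12 held 28 *ORC1Δ*-only origins of 132 (21.2%), where all *ORC1Δ* origins gave 12.8%. *CSMD1* held 5 of 25 and *LRP1B* 3 of 3, with none called in WT. The *LRP1B* origins held 169, 90 and 90 reads in WT and 170, 124 and 136 in *ORC1Δ* cells. *MACROD2* held 3 of 6 and *RBFOX1* 1 of 21. By gene length, the share was 6.54% of the *ORC1Δ* origins in genes under 50 kb and 17.4% in genes of 200 to 500 kb, with densities of 0.20 and 0.19 per 100 kb. In genes of 500 kb or more, the share was 16.1% and the density 0.102 per 100 kb. Of 24 colon epithelium genes, 1 held any, where 8.11% of all protein-coding genes did. Its 2 *ORC1Δ*-only origins were 8.33% of the 24 *ORC1Δ* origins in these genes, where all *ORC1Δ* origins gave 12.8%.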

How the data were processed

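SNS-seq of 8 HCT116 samples, 2 biological replicates for each of 4 lines, was analysed. Per the labels and the methods, the authors trimmed reads (Trim Galore 0.6.4), aligned them to GRCh38 with Bowtie, called peaks with MACS2 and kept peaks found in both replicates. The interval lists hold positions alone. The read counts per origin that the authors deposited merge both replicates of a line. The counting tool and the treatment of duplicates are not given in the sources used here. The table of WT and *ORC1Δ* cells held 6416892 and 6691088 reads over all its chromosomes and contigs, and intervals from these depths cover counting error only. SNS-seq does not measure gene expression, so the loss of ORC1 was not checked here.

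RPM, folds with exact Clopper-Pearson intervals, composition, skew, G4Hunter scores in windows of 25 bases, repeats and positions were computed with Python 3.11.15, scipy 1.17.1 and GENCODE 44. CpG islands were stretches of at least 200 bp with at least 50% GC and an observed over expected CpG of at least 0.6. The GC-content bins at the ends hold all origins beyond them. Sequence features were compared by the two-sided Wilcoxon rank sum test with Cliff's delta and Benjamini-Hochberg adjustment over 35 comparisons, and shares by Newcombe intervals. The difference between 2 deltas was tested by a normal approximation over regions. Statistics were tested on simulated data. TMM factors came from edgeR 4.0.16.

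Named origins had at least 100 reads of both lines together: the 6 highest and 3 lowest folds, the 3 with the most *ORC1Δ* reads, the 3 highest absolute GC skews and the 3 widest. Genes were the 6 with the most such origins (7, with ties), those with at least 2 in the 3 densest blocks, and those of the licensing, fragile site and colon lists. *SLC24A3* and *LINC02011* came from the typical origins, which were chosen outside chromosome 8. Some named origins and genes of this rule are not reported here. The origins and lists were chosen with earlier results of these data known. Alternatives covered the rule, scaling, read filters, windows, reference sets and gene sets.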

Additional observations from a re-analysis of the deposited data

Results flagged for a closer look

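Cliff's delta of the origins called in a single line against the other origins of that line is given here as a difference between *ORC1Δ* and each other knockout. The intervals behind these differences run over regions, which are no replicates of a line, and treat lists that share regions as independent, so they do not measure the spread between knockouts. For GC content, the delta of *ORC1Δ* minus that of *ORC2Δ* was −0.186 and minus that of *ORC5Δ* −0.251. For the highest absolute G4Hunter score these differences were −0.334 and −0.186. Absolute GC skew was the single feature for which the direction also turned: the delta was 0.0436 in *ORC1Δ*, −0.113 in *ORC2Δ* and −0.0795 in *ORC5Δ*, with differences of 0.157 and 0.123. The 0.0436 itself turned with the window and the GC content, as given above.

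For the ratio of observed to expected CpG the differences were −0.107 and −0.0927. For the distance to the nearest TSS they were 0.0875 and 0.0936, and for the gap to the next origin of the line 0.0803 and 0.103. Absolute TA skew differed from *ORC5Δ* by 0.105, while the difference from *ORC2Δ* was −0.00406, with an interval from −0.0290 to 0.0209.

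On chromosome Y and other contigs, which the comparisons did not use, 17 of 235 *ORC1Δ* origins were called in no other line, against 10 of 199 in WT, 33 of 258 in *ORC2Δ* and 15 of 239 in *ORC5Δ* cells.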

How the results depend on the processing

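For the counts of origins, the tests and the shares, the direction and the call held in the results not named here. Among named origins with folds near 0, the log2 fold of the chromosome 7 origin with 774 WT reads turned from −0.04 to between 0.0062 and 0.23 (shared-origin scaling, block and GC content), *SSTR5* to 0.0995 (block) and 0.18 (GC content), and *IQUB* to −0.04 (block). No paired analysis was possible because the deposited counts merge the replicates of each line, and for the same reason no replicate could be left out. With the WT list alone as the other list, 12038 origins were *ORC1Δ*-only. The median log2 fold was 0.39 with scaling to reads in origins called in both lines, 0.36 with median-of-ratios factors, 0.24 in the 1195 origins with at least 200 reads (147 up by 1.5-fold), 0.27 with a correction for GC content and 0.33 without chromosomes 5, 8 and 13, an alternative chosen after seeing the data. At 2-fold, 162 origins were up. The Cliff's delta of absolute GC skew against the other *ORC1Δ* origins turned to −0.0446 in the 500 bp window and to −0.0254 with the reference weighted to GC content. That of absolute TA skew against *ORC2Δ*-only origins turned to −0.00324 and −0.00930 in the same settings, and against *ORC5Δ*-only origins the weighted deltas of CpG and of TSS distance were −0.00947 and 0.0192. The weighting by *ORC1Δ* reads was chosen after seeing the data wherever it was used. The weighting by GC content was chosen after seeing the data for the *ORC2Δ*-only and *ORC5Δ*-only sets, for positions and for repeats. It moved the differences for TSSs, CpG islands, intergenic origins and the AGG repeat to −0.599, −0.0635, −2.00 and −0.173 points. With 6 copies, AGG differed by −0.105 and ACCC by −0.0650 points. The causes were not tested. With a median of 72 WT reads per origin, folds of single origins rest on counting intervals with a median half-width of 0.46.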
